A study of Arabidopsis thaliana x Arabidopsis arenosa with 4 samples.

Results

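Total expression in the fruit was compared between the C24 cross and the Ler cross. In both, tetraploid Arabidopsis thaliana was crossed with tetraploid Arabidopsis arenosa, so that the seeds in the fruit are F1 hybrids. The comparison covered 15006 loci out of 16610 that appeared in at least 1 of the 3 deposited allele tables. A locus entered when the same transcript was listed for both crosses, and where several were, the transcript with the highest mean stood for the locus. In all, 15479 loci were listed for the C24 cross and 15935 for the Ler cross. They shared 15008, of which 2 had no transcript in common. A further 471 loci were listed in the C24 cross only and 927 in the Ler cross only, and these are described separately at the end.

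The C24 cross had the A. thaliana ecotype C24 as 1 parent and the Ler cross the ecotype Ler. In both, the other parent was A. arenosa stock CS3901, flowers were emasculated and pollinated by hand, and silique tissue was taken 4 days after pollination for poly(A) RNA sequencing. The labels do not say which parent gave the pollen. A Col cross of the same kind gives context only, and the allotetraploid Allo733 was not used here. Below, a value with C24, with Ler or with Col is the total RPKM in the cross of that ecotype, and values set against each other without names are C24 first and Ler second. Each cross was sequenced as 1 library, so no difference has a replicate check and no p-value can be given; a rule of size is used instead. The tissue was sequenced in bulk, so fruit tissue of the seed parent and the hybrid seeds inside it were measured together. A difference between the crosses is therefore not one of hybrid tissue alone. Fewer cells of a type cannot be told apart from less RNA per cell.

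The silique is the developing fruit of Arabidopsis, with valves, a replum, a valve margin, vascular bundles and the seeds inside. Vessels and fibres in its bundles, and the layers that later help the fruit to open, thicken their walls with cellulose, xylan and lignin. Brassicaceae also store glucosinolates, sulphur-rich defence compounds that myrosinase enzymes split when tissue is damaged. The A. thaliana ecotypes are known to differ in these compounds and in the enzymes that process them.

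Values were RPKM, reads scaled by transcript length and library total, and ratios were log2 of C24 over Ler after adding 0.1 RPKM to each. The median ratio, -0.18, was subtracted, so every ratio below is relative to the median locus. The added 0.1 understates the change of loci with low values, and the read depth behind the RPKM values is unknown. Neither table listed a total under 2.00 RPKM. Of 20 fruit patterning genes 15 were listed in both crosses, among them the ovule gene STK, the carpel gene AG and the valve margin genes SHP1 and SHP2. IND, CRC, HEC1 and ADPG2 were in neither table, and ANT was listed in the Ler cross only. Markers of the endosperm and the embryo were largely absent, with 1 of 8 listed in each case. Whether the absent ones had low values or were left out for another reason is unknown.

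Most loci had similar levels. Of the 15006, 13685 or 91.2% lay within 2-fold after centring, and the quartiles of the ratio were -0.32 and 0.33. The C24 cross was at least 2-fold higher at 824 loci (5.49%) and at least 2-fold lower at 497 (3.31%), together 8.8% of loci. Every count of a list or family below is to be read beside these shares. Without centring, the balance turned, with 592 higher and 878 lower. Higher loci were thus 62.4% of all that passed 2-fold with centring and 40.3% without it. Past 8-fold the C24 cross was higher at 45 loci (0.3%) and lower at 12 (0.08%). The share of higher loci ran from 4.26% to 6.43% over 5 equal bins of mean RPKM, and from 4.93% to 6.37% over the 5 chromosomes, so the higher loci were spread over levels and chromosomes.

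**Figure D1:**
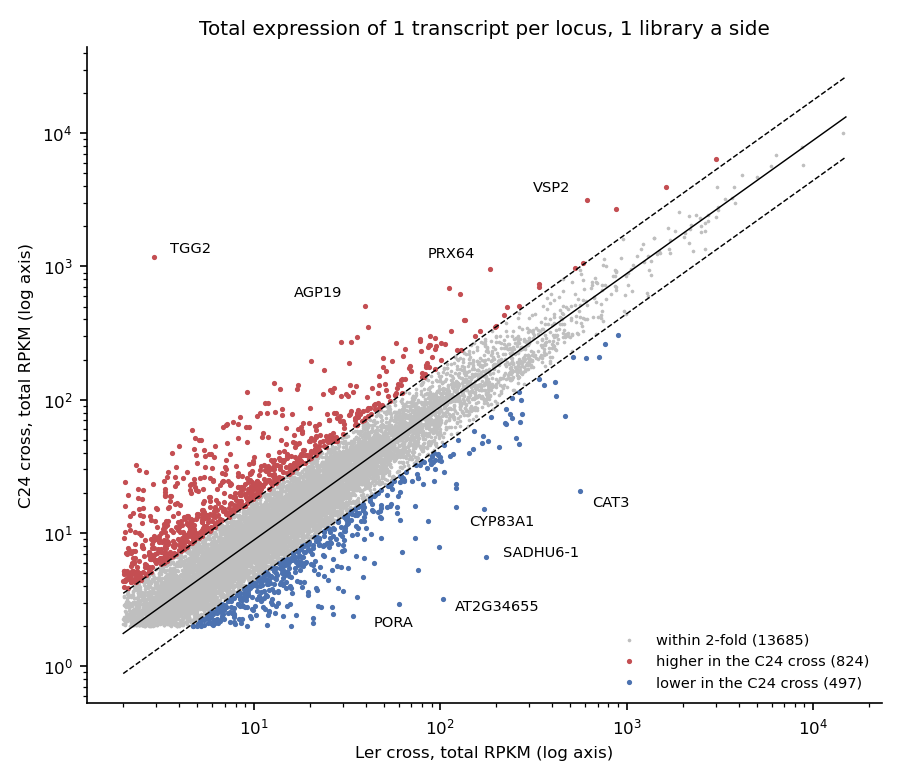
Total RPKM in the C24 cross (vertical, log axis) against the Ler cross (horizontal, log axis), 1 point per locus. The solid line is the median ratio and the dashed lines mark 2-fold on either side; the 824 higher loci lie above the upper dashed line, the 497 lower loci below the lower one, and TGG2 stands alone at the upper left with 1182 RPKM against 2.91.

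Genes that build the cellulose of the secondary wall were higher throughout. All 7 of the list were listed in both crosses and all 7 were higher in the C24 cross, beside 5.49% of all loci. Their median ratio was 3.06, beside 0 for all loci. This list and the others were chosen with earlier results of these data known, so such shares describe the lists and are no test. The 3 catalytic subunits of the secondary wall cellulose synthase moved by nearly the same factor. CESA4 had 168 RPKM with C24, 23.9 with Ler and 20.9 with Col. CESA7 had 120, 17.2 and 17.7 RPKM in the same order. CESA8 had 128, 17.3 and 20.22 RPKM. The Ler and Col values of each subunit lay close to each other, and the C24 value lay far above both. Ratios of C24 over Ler were 2.99, 2.98 and 3.06 for CESA4, CESA7 and CESA8, which is 7.96-fold, 7.90-fold and 8.34-fold. COBL4, also called IRX6, a COBRA-like protein anchored outside the plasma membrane, had 115 RPKM against 9.27 and a ratio of 3.80. CTL2, a chitinase-like protein needed for cellulose deposition, had 271 RPKM against 33.2. The fasciclin-like arabinogalactan proteins FLA11 and FLA12 of the stem's secondary walls had 297 against 35.7 RPKM and 396 against 135 RPKM. FLA12 was the least changed of the 7, with a ratio of 1.73.

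Xylan genes followed the same pattern. Of 17 entries 16 were listed in both crosses, 14 of them were higher in the C24 cross, none was lower, and the median ratio was 2.78. IRX9, which works with IRX10 and IRX14 to build the xylan backbone, had 51.7 RPKM against 4.84 and a ratio of 3.57. IRX15 and IRX15-L, both DUF579 proteins, had 49.9 against 5.23 RPKM and 120 against 13.8 RPKM. GXMT1, which methylates the glucuronic acid side chains, had 64.1 RPKM against 7.11. TBL29, which acetylates the backbone, had 94.2 RPKM against 11.9, a ratio of 3.16. Genes for backbone, side chains, methylation and acetylation were thus all among the higher loci. The entries within 2-fold were I9H (9.42 against 9.24 RPKM) and IRX10-L (37.1 against 24.8 RPKM), paralogs of IRX9 and IRX10. GUX2, a xylan glucuronosyltransferase, was listed at 8.86 RPKM in the C24 cross and was absent from the Ler table. Summed over the 23 cellulose and xylan loci, RPKM was 2394 with C24 and 449 with Ler.

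Lignin genes split by step. Of 19 entries 18 were listed in both crosses and all 18 had a ratio above 0, though PAL4 (0.07) and CYP84A1 (0.09) fall below 0 without centring; 6 passed 2-fold, all higher, and the median was 0.90. Polymerising enzymes, which couple monolignols in the wall, were the most changed. LAC4, a laccase also called IRX12, had 351 RPKM with C24, 40.9 with Ler and 42.8 with Col. LAC17 had 111, 23.4 and 29.9 RPKM, and LAC11 had 62.5, 17.9 and 22.3 RPKM. The peroxidase PRX64 had 959, 186 and 291 RPKM. Ratios of these 4 were 3.28, 2.42, 1.98 and 2.55. Enzymes that make the monolignols differed less. PAL1, the entry enzyme of the pathway, had a ratio of 0.99 and C4H one of 0.90. HCT lay at 0.89, CYP98A3 at 0.91, CCoAOMT1 at 1.04 and CAD4 at 1.28. CYP84A1, the ferulate 5-hydroxylase that leads to syringyl units, had 25.9 against 27.6 RPKM and a ratio of 0.09. Most of the monolignol genes therefore sat just under the 2-fold rule, and CCoAOMT1 and CAD4 just over it; without centring CCoAOMT1, at 0.85, fell under.

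AC elements are short promoter motifs bound by MYB factors of the phenylpropanoid pathway. The letters ACCTACC, the variant ACCAACC and the variant ACCTAAC were searched on both strands in the 250 bases before each annotated gene start, and 8 of the 18 lignin genes (44.4%) held at least 1 match. Of all 14920 compared loci with a window, 6.23% did, against 9.04% of the higher loci and 6.48% of the lower ones. None of the 7 cellulose genes and 1 of 16 xylan genes held a match in this window. The median ratio was 0.90 for the 8 lignin genes with a match and 0.90 for the 10 without. Below are 4 of these windows, shown because they hold matches upstream of genes early, midway and last in the pathway; they come from the RefSeq genome TAIR10.1, which is of Col origin and not of either ecotype compared, and were found through the locus code. Capitals mark the AC elements as read on the printed strand.
4CL2, chr3:7457405-7457654, minus strand: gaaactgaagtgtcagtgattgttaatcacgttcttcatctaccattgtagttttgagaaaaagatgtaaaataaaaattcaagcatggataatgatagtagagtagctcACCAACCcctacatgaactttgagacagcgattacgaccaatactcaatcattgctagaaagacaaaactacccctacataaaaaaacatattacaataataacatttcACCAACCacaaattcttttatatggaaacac
HCT, chr5:19838236-19838485, minus strand: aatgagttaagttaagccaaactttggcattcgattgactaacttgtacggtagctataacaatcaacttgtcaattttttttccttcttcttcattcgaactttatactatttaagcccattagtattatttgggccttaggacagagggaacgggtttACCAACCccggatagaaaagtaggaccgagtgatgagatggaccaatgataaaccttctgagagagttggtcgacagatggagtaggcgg
CCoAOMT1, chr4:16310159-16310408, plus strand: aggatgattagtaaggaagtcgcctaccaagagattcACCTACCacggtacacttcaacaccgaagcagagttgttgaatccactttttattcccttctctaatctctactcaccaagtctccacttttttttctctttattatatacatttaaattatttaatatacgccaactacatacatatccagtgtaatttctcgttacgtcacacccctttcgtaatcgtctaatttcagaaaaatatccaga
LAC17, chr5:24167746-24167995, plus strand: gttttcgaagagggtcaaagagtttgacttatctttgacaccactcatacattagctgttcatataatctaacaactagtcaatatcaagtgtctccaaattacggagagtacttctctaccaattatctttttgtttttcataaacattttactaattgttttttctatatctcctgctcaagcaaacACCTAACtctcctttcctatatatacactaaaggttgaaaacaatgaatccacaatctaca
4CL2, which activates hydroxycinnamic acids, holds ACCAACC at 2 places and had 29.2 against 19.2 RPKM. HCT, the shikimate transferase, holds it at 1 place and had 172 against 105 RPKM. CCoAOMT1, a methyltransferase, holds ACCTACC and had 360 against 199 RPKM. LAC17 holds ACCTAAC. Of the 4, LAC17 had the largest ratio and 4CL2, with 2 matches, the smallest.

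Among regulators of the secondary wall, 10 of 19 entries were listed in both crosses, 5 were higher, none was lower and the median ratio was 1.17. MYB46, a switch that turns on cellulose, xylan and lignin genes, had 28.7 RPKM with C24, 3.47 with Ler and 2.72 with Col. MYB103 had 21.1 RPKM against 2.55 in the Ler cross and was absent from the Col table. SND2, a NAC factor, had 22.4 RPKM against 3.81. NST1, which acts above MYB46 in fibres and the fruit, had 35.1 against 12.5 RPKM and a ratio of 1.67. KNAT7, a homeodomain factor of the same network, had 80.1 against 35.8 RPKM. The vessel regulators VND6 and VND7, at 2.62 and 2.81 RPKM, and MYB52, at 3.56 RPKM, were listed in the C24 cross only. MYB20 (3.22 against 4.23 RPKM) and the repressor VNI2 (16.1 against 21.2 RPKM) had ratios slightly below 0. NST2, NST3, MYB83 and MYB85 were in neither table.

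Genes that empty a vessel cell when it dies did not share the size of the wall difference. None of the 5 passed 2-fold in either direction after centring, though BFN1 was lower by the rule without it. The cysteine peptidases XCP1 and XCP2 had 25.2 against 15.9 RPKM and 90.12 against 51.1 RPKM, ratios of 0.84 and 1.00. MC9, a metacaspase of vessel elements, had a ratio of 0.76. BFN1, a nuclease of senescing and dying cells, had 15.8 against 35.0 RPKM and a ratio of -0.96, or -1.15 without centring. In the 6 xylem markers, of which CESA4, CESA7, CESA8 and LAC4 are also wall genes, summed RPKM was 882 against 166. The others are XCP1 and XCP2, both within 2-fold, so this sum largely repeats the wall genes. Whether the C24 fruits held more lignifying cells was not tested.

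Families were also counted by their annotated products, whether or not a locus was in a list. They hold genes already described above: LAC4, LAC11, LAC17, IRX15, IRX15-L, GXMT1, FLA11, FLA12, TBL29 and CTL2. The family counts are therefore not separate from those of the lists. Over all loci 5.49% were higher and 3.31% lower. Of 8 laccase loci 7 were higher, with LAC2 at 62.1 against 6.84 RPKM, LAC10 at 65.6 against 8.29 RPKM and LAC12 at 62.8 against 9.15 RPKM. LAC13, at 3.34 against 3.75 RPKM, was the exception. Of 9 DUF579 loci 6 were higher. Of 14 fasciclin-like arabinogalactan protein loci 9 were higher, while FLA9, at 68.9 against 87.9 RPKM, had a ratio of -0.17; without centring 6 of the 14 passed. Of 34 trichome birefringence-like loci, the family of TBL29, 6 were higher and none was lower, with a median of 0.37. Of 24 IQ-domain loci 3 were higher and none was lower, with a median of 0.30. Chitinases had 3 higher and 1 lower of 7, with a median of 0.91, and 2 higher without centring. AGP19, an arabinogalactan protein, had 508 RPKM against 39.5 and 73.1 in the Col cross, and its ratio of 3.86 was the third highest of all loci that reached 5 RPKM.

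Primary wall and growth genes differed less. Of 8 primary wall cellulose loci 2 passed 2-fold, both upward, and all 8 had ratios above 0 with a median of 0.88. CESA2 had 112 against 46.4 RPKM and CESA6 176 against 87.1 RPKM, both subunits of the primary wall enzyme. CESA1 and CESA3, the subunits that every primary wall complex needs, had ratios of 0.69 and 0.58. KOR1, an endoglucanase of cellulose synthesis, had 0.91. Expansins loosen walls during growth, and 3 of 11 were higher. EXPA5 had 238 against 64.8 RPKM, EXPA4 75.04 against 29.2 RPKM and EXPA1 30.1 against 12.3 RPKM. EXPA10 had 1 transcript at 0.56 and another at 4.68, so its ratio depends on the transcript.

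**Figure D2:**
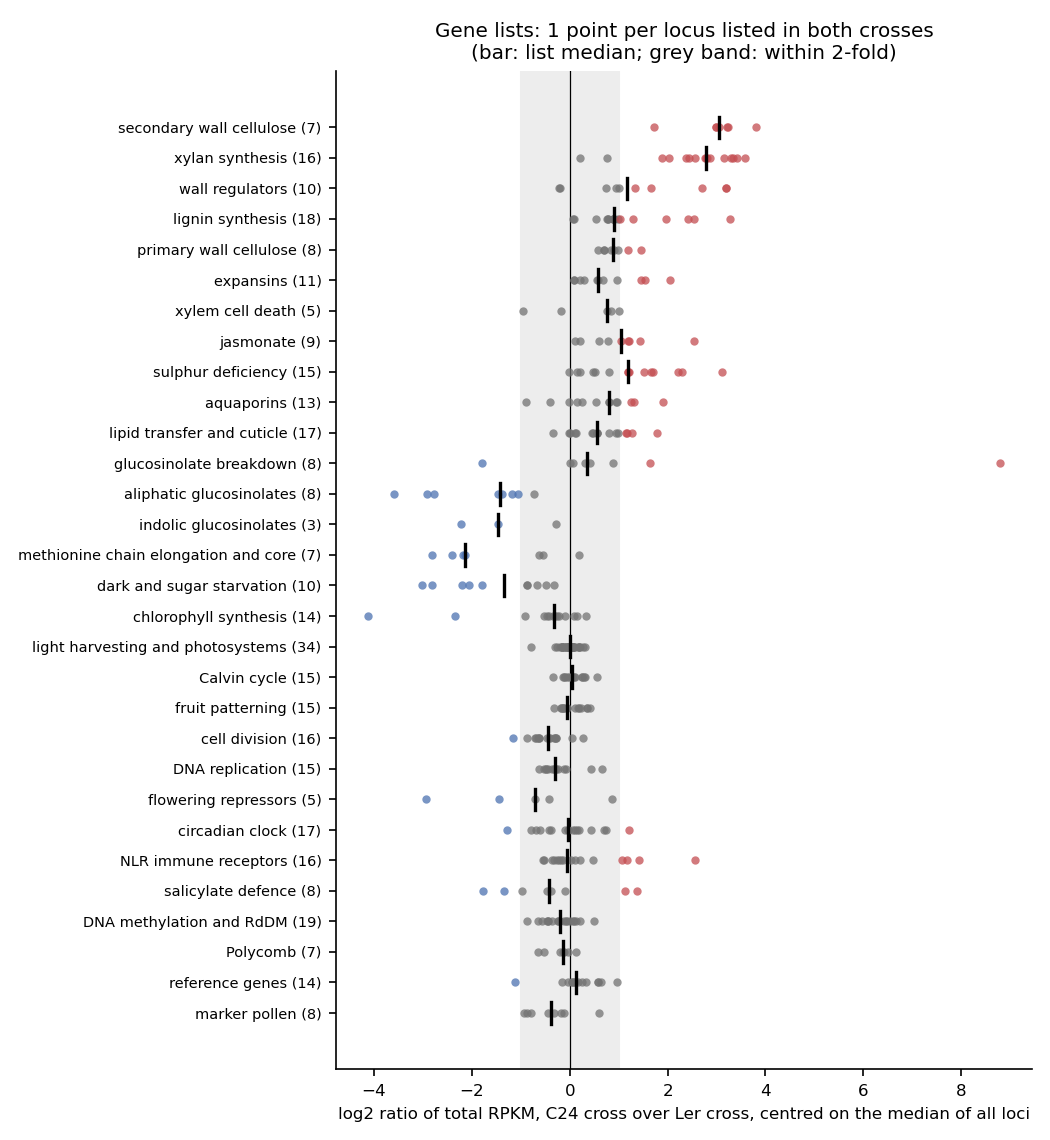
Centred log2 ratio of total RPKM, C24 cross over Ler cross (horizontal), for the loci of 30 gene lists (vertical; number of loci listed in both crosses in brackets). Each point is 1 locus and each black bar a list's median; cellulose and xylan genes lie at the right, glucosinolate synthesis genes at the left, and photosystem and fruit patterning genes inside the grey 2-fold band.

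Genes of fruit patterning stayed within 2-fold, 0 of 15 passing it in either direction. Over all loci 8.8% passed, so 0 in a list this short is near the general share. The median was -0.05 and the range ran from -0.33 to 0.42. The MADS-box genes that set valve margin and ovule identity had close values. SHP1 had 25.9 against 30.6 RPKM, SHP2 34.2 against 30.5 RPKM and STK 30.8 against 38.3 RPKM. FUL, the valve gene, had 33.8 against 39.7 RPKM. SEP2 had 156 against 155 RPKM. ALC, a factor of the separation layer, had 24.7 against 21.9 RPKM. With A. thaliana allele values in place of totals the list's median was 0.02, so its sign depends on which is used. The ERECTA receptor family, which shapes fruit length, is ER, ERL1 and ERL2. Its list also held the kinases YDA, SERK1 and BAK1, which are not family members. None of the 6 genes passed 2-fold, beside 8.8% of all loci. ER, the gene that carries a known mutation in Ler, had 22.6 RPKM with C24, 34.4 with Ler and 34.3 with Col. ERL1 had 9.96 against 9.32 RPKM, ERL2 2.38 against 3.45 RPKM, YDA 16.8 against 18.5 RPKM, SERK1 8.98 against 8.30 RPKM and BAK1 13.1 against 13.5 RPKM.

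Cell division genes lay mostly below the median locus in the C24 cross. Of 16 listed in both crosses, 14 had ratios under 0 and the median was -0.44, but 1 passed 2-fold after centring and 2 without it, the added gene being CYCA1;1 (-1.05). The first was SYP111, the syntaxin that fuses vesicles into the new cell plate, with 5.71 RPKM with C24, 14.7 with Ler and 20.5 with Col. CYCB1;2, a mitotic cyclin, had 5.65 against 10.4 RPKM, and CDKB2;1, a mitotic kinase, 7.62 against 10.8 RPKM. A further 5 entries, CYCB1;1, CYCB2;2, CYCA2;4, AUR2 and MYB3R-4, were listed in the Ler cross at 2.04 to 2.71 RPKM and not in the C24 cross. DNA replication genes had a median of -0.30 with none of 15 past 2-fold, beside 8.8% of all loci. The helicase subunits MCM2 to MCM6 had ratios from -0.63 to -0.24. Both medians are small beside 2-fold, and 31 loci of the 2 lists together held 273 RPKM against 371. The core AACGG of the mitosis-specific activator motif was present on either strand upstream of 8 of the 16 cell division genes (50%) and of 22.1% of all compared loci.

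Light harvesting and photosystem genes, the most abundant of these lists, lay within 2-fold throughout, as did 91.2% of all loci. All 34 were listed, 0 passed 2-fold in either direction, and the median ratio was 0.00 with 17 above and 17 below. Their levels were high, with LHCB5 at 2669 against 3088 RPKM. The 15 Calvin cycle genes also held none past 2-fold, with a median of 0.05. Both medians rest on the centring and were -0.18 and -0.13 without it.

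Chlorophyll synthesis had 2 exceptions among 14 genes, both light-dependent protochlorophyllide oxidoreductases. PORA, the form of dark-grown and young tissue, had 2.94 RPKM with C24, 60.2 with Ler and 5.15 with Col. PORB had 46.2, 265 and 80.9 RPKM. PORC, the form of mature green tissue, had 64.9, 92.9 and 89.9 RPKM. The Ler values of PORA and PORB stood above the other crosses, with C24 over Ler ratios of -4.13 and -2.34, while PORC differed by -0.33. The other 11 genes ran from -0.91 (-1.09 without centring) for GLK1, a factor that turns on photosynthesis genes, to 0.33 for GUN4, which activates magnesium chelatase. HEMA1 lay at -0.21, CHLI1 at -0.41, GUN5 at 0.09, CHLD at -0.26, CHLM at -0.47, CRD1 at -0.09, CHLG at 0.16, CH1 at -0.30 and GLK2 at -0.53.

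Light stress genes and catalases, a list drawn up after these values were seen, also held large differences. ELIP1, an early light-induced protein that binds pigments under excess light, had 269 RPKM with C24, 29.5 with Ler and 240 with Col. ELIP2 had 23.1, 10.1 and 28.1 RPKM. In both genes the Ler value was the low one. CAT3, a peroxisomal catalase, had 20.7 against 563 RPKM on the transcript used here and 174 RPKM in the Col cross, a ratio of -4.58. Its other 3 shared transcripts gave ratios from -2.59 to -1.11, so the direction held and the size did not. CAT2, the catalase of photorespiration, had 180 against 68.7 RPKM on 1 transcript (1.57) and 3.27 against 48.9 RPKM on another (-3.68), so no direction is given for it. Such disagreement by more than 1 log2 unit was found at 184 of 3019 loci with several shared transcripts.

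Glucosinolate synthesis genes were lower in the C24 cross. Of 15 aliphatic entries 8 were listed in both crosses and 7 of these were lower, beside 3.31% of all loci. The median ratio of the 8 was -1.43. This list too was chosen with earlier results of these data known, so its share is no test. CYP79F1, which makes the first committed intermediate from chain-elongated methionine, had 2.38 RPKM with C24 and 34.0 with Ler, and was absent from the Col table. BCAT4, the aminotransferase that starts chain elongation, had 7.15 RPKM with C24, 62.3 with Ler and 2.25 with Col. CYP83A1, the next oxidation step after CYP79F1, had 15.6, 122 and 6.83 RPKM. In BCAT4 and CYP83A1 the Ler cross stood above both others. Ratios for CYP79F1, BCAT4 and CYP83A1 were -3.60, -2.92 and -2.78. The C-S lyase SUR1 had a ratio of -1.39, the glucosyltransferase UGT74C1 one of -1.06 and the sulphotransferase SOT18 one of -1.17. MAM1, a chain elongation synthase, had 3.76 against 12.0 RPKM and a ratio of -1.47. MYB28, the main activator of the pathway, had 9.80 against 18.5 RPKM and, at -0.73, did not pass 2-fold. CYP79F2, SOT17, AOP3 and the plastid transporter BAT5 were listed in the Ler cross only, at 5.02, 12.0, 7.11 and 7.33 RPKM.

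Of the indolic branch, 3 of 9 entries were listed in both crosses and 2 were lower. CYP83B1 had 6.66 against 35.5 RPKM (-2.22) and UGT74B1, which serves both branches, 12.3 against 38.9 RPKM (-1.47). SOT16 had 18.1 against 25.2 RPKM and did not pass. CYP79B2, which starts the branch from tryptophan, was listed at 14.8 RPKM with Ler and 2.25 with Col, and not in the C24 cross. The 11 loci of both branches summed to 134 RPKM against 498. A further list of methionine chain elongation and core genes, drawn up after the values were seen, gave 4 lower of 7. Isopropylmalate dehydrogenase IMD1 had 2.78 against 23.0 RPKM. The isomerase subunits IPMI1 and IPMI2 had 5.60 against 29.3 RPKM and 6.48 against 39.3 RPKM. The glutathione transferase GSTU20 had 51.2 against 257 RPKM. Side chain oxygenases did not share a direction. FMO GS-OX1 and FMO GS-OX3 were listed in the Ler cross only, at 8.94 and 17.41 RPKM, and FMO GS-OX2 was listed at 46.6 RPKM with C24 and 14.4 with Col, and not in the Ler cross.

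Breakdown of glucosinolates held the largest single difference. TGG2, a myrosinase, had 1182 RPKM with C24, 2.91 with Ler and 722 with Col. Its ratio of 8.80, 446-fold, exceeded that of every other locus compared. The next highest among loci reaching 5 RPKM was 3.91, of the zinc finger gene AT1G68200. TGG1, the neighbouring myrosinase, had 757 RPKM with C24, 692 with Ler and 501 with Col, a ratio of 0.31. The values assigned to both alleles of TGG2 were low in the Ler cross. Its A. thaliana alleles gave 1111 against 2.60 RPKM and its A. arenosa alleles 70.9 against 0.314 RPKM. For TGG1 the A. arenosa alleles gave 24.7 against 1.46 RPKM. TGG1 and TGG2 are close paralogs, and the handling of reads that fit both is unknown here. Reads of 1 species given to the other would also move both allele values of a gene together, and that share is unknown. A low A. arenosa allele of TGG2 is therefore not established.

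The windows before the 2 myrosinase genes are shown because the levels of these neighbours parted with Ler and not with C24 or Col. They come from the RefSeq genome TAIR10.1, with 2 annotated genes between TGG2 and TGG1. Capitals mark the longest run that both windows share, 21 bases.
TGG2, chr5:9072458-9072707, plus strand: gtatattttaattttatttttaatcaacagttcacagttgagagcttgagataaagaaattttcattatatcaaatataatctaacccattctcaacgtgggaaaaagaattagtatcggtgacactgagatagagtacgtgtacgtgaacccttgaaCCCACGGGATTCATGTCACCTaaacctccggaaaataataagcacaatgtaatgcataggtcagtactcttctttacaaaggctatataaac
TGG1, chr5:9082385-9082634, minus strand: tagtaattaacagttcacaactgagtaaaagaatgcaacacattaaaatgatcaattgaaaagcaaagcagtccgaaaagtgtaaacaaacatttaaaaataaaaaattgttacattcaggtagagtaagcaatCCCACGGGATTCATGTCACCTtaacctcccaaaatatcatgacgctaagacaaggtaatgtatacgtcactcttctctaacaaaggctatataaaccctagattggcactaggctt
The reference is of Col origin, so the windows show neither the C24 nor the Ler sequence, and no sequence difference between the ecotypes was examined.

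Other proteins of glucosinolate breakdown differed less. ESP, the epithiospecifier protein that turns products toward epithionitriles and nitriles, had 4874 RPKM with C24 and 4150 with Ler, a ratio of 0.41. The Col cross had 48.8 RPKM, so the Col value stood far below both. NSP1, a nitrile specifier, had 11.1 against 3.96 RPKM (1.65) and NSP5 185 against 114 RPKM (0.88). MBP1, a myrosinase-binding protein, had 68.3 RPKM with C24, 269 with Ler and 258 with Col, a ratio of -1.80. MBP2 had 267 against 301 RPKM, a ratio of 0.01. PEN2, an atypical myrosinase of pathogen defence, had 22.9 against 24.8 RPKM. ESM1, a modifier of specifier activity, was listed in the Col cross at 104 RPKM and in neither of the others. Of the 8 genes listed in both crosses, 2 were therefore higher and 1 was lower.

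Genes that respond to sulphur shortage, another list drawn up after the values were seen, were higher in the C24 cross at 9 of 15 loci. None was lower and the median was 1.19. Without centring 8 were higher, as SDI2 (0.999) fell under the rule. SDI1, a repressor of glucosinolate synthesis under sulphur deficiency, had 42.0 RPKM with C24, 5.41 with Ler and 13.1 with Col. LSU3 had 31.0, 7.05 and 13.0 RPKM. GGCT2;1, which degrades glutathione, had 61.4, 15.0 and 31.7 RPKM. In these 3 the Col value lay between the other crosses. SULTR4;1 and SULTR4;2, which release sulphate from the vacuole, had 32.3 against 15.8 RPKM and 25.8 against 9.21 RPKM. SHM7, BGLU28, APR3 and SDI2 had ratios of 1.70, 1.51, 1.19 and 1.18. LSU1 was listed at 34.7 RPKM with C24 and not with Ler. The reductases APR1 and APR2 had 43.9 against 50.4 RPKM and 78.5 against 77.5 RPKM, and the uptake transporter SULTR1;2 3.12 against 3.17 RPKM, so these did not differ by 2-fold.

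**Figure D3:**
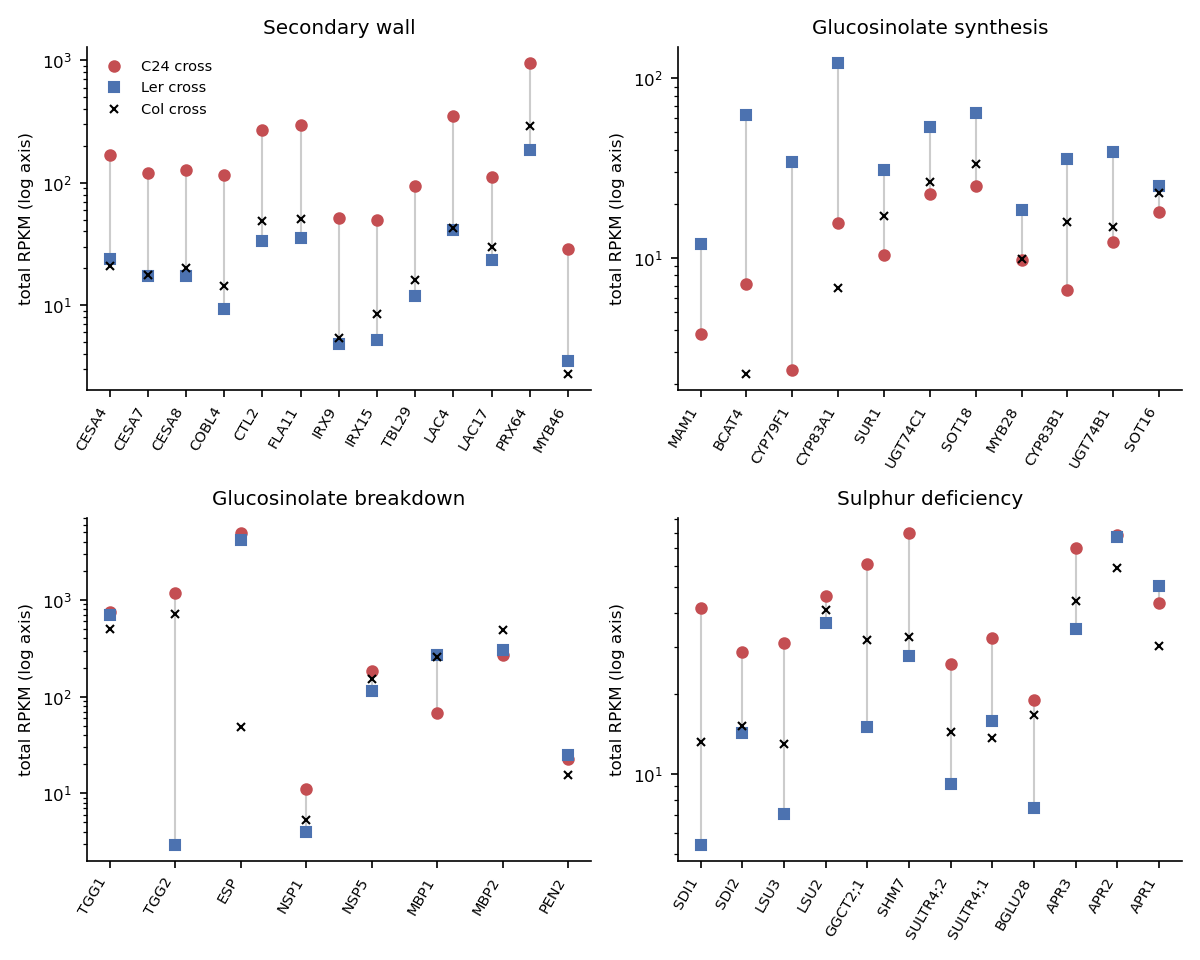
Total RPKM (vertical, log axes) of single genes in the C24 cross (circles), the Ler cross (squares) and, where listed, the Col cross (crosses), 1 library each, for 4 groups of genes. The circles lie above the squares for the wall genes and for most sulphur deficiency genes and below them for glucosinolate synthesis genes, and the TGG2 square lies at 2.91 RPKM far below the other 2 symbols.

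Genes induced by darkness and sugar starvation, also listed after the values were seen, were lower in the C24 cross at 5 of 10 loci. None was higher and the median was -1.34. Without centring 7 were lower, with DIN4 (-1.06) and bZIP1 (-1.06) added. DIN10, a raffinose synthase family gene, had 2.80 RPKM with C24, 26.4 with Ler and 6.14 with Col. The dormancy-associated gene AT2G33830 had 9.15, 73.6 and 6.17 RPKM. AT3G15450 had 23.3, 121 and 18.3 RPKM. In each of the 3 the Ler value stood apart from the other crosses. ASN1, the asparagine synthetase of darkened tissue, had 2.43 against 11.9 RPKM, and DYL1 5.27 against 21.1 RPKM. SEN1 and DIN2 were listed in the Ler cross only, at 8.31 and 2.77 RPKM. Clock genes were mixed, with 1 higher and 1 lower of 17 and a median of -0.03. CCA1, a morning factor, had 33.8 against 16.4 RPKM and RVE1 5.22 against 14.6 RPKM. PRR7, a daytime repressor of CCA1, had 34.0 against 66.7 RPKM and TOC1, an evening gene, 6.80 against 11.9 RPKM, both within 2-fold after centring. The labels give no hour of harvest, and its part in these values was not tested.

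Flowering repressors of the MADS AFFECTING FLOWERING group were lower in the C24 cross. MAF2 had 2.32 RPKM with C24, 20.8 with Ler and 17.38 with Col, a ratio of -2.93. MAF3 had 3.66, 11.4 and 7.02 RPKM, a ratio of -1.44. MAF1 was listed at 11.8 RPKM with Ler and 29.8 with Col, and not in the C24 cross. FRI, which raises FLC expression, was listed at 2.94 RPKM with C24 and 3.27 with Col, and not in the Ler cross. FLC, MAF4, MAF5 and SVP were in neither table. FT, the flowering signal, had 66.6 against 124 RPKM (-0.71), SOC1 3.75 against 5.72 RPKM (-0.41) and FRL1 3.85 against 2.36 RPKM (0.87). Of the 5 genes listed in both, 2 passed 2-fold, both lower.

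Immune receptor genes differed in both directions. Of 50 loci annotated as NB-ARC or NBS-LRR proteins 8 were higher and 3 lower, with a median of 0.16 and a lowest ratio of -2.66; without centring 5 were higher and 5 lower, and the median was -0.02. Of 16 nucleotide-binding receptor genes of a shorter list that both tables hold, 4 were higher, none was lower and the median was -0.06; without centring RPP5 (0.88) and ADR1 (0.98) fell under the rule and 2 were higher. SNC1 had 48.2 RPKM with C24, 9.19 with Ler and 30.8 with Col. RPP4 had 18.7, 7.96 and 11.0 RPKM, and RPP5 10.2, 5.51 and 7.45 RPKM. These 3 are paralogs of the RPP5 cluster on chromosome 4, and RPP4, SNC1 and AT4G16892 formed 1 of 4 runs in which at least 3 compared neighbours passed 2-fold in the same direction. Reads shared between such paralogs make their values uncertain. ADR1, a helper receptor, had 5.12 against 2.54 RPKM. CSA1 was listed at 11.3 RPKM with C24 and 2.25 with Col, and not in the Ler cross. The other 3 runs were AT2G33815 to AT2G33830 (lower), AT2G38740 with the annexin genes ANNAT4 and ANNAT3 (higher), and the trypsin inhibitor genes TI1 and TI2 with AT2G43535 (lower). TI2 had 2.02 against 15.9 RPKM. Strand is not stated, so reads of overlapping neighbours cannot be told apart.

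Salicylate genes were mixed, while jasmonate genes lay above the median locus. Of 8 salicylate defence genes 2 were higher and 2 lower, with a median of -0.42. PR5 had 4.38 against 17.1 RPKM and WRKY70 4.13 against 12.0 RPKM, whereas EDS5, the salicylate precursor exporter, had 4.91 against 2.11 RPKM and WRKY18 10.1 against 5.16 RPKM. Without centring 1 was higher and 3 were lower, as WRKY18 (0.96) fell under the rule and NPR1 (-1.15) passed it. PR1 was in neither table. Of 9 jasmonate genes 5 were higher, none was lower, all had ratios above 0, though AOS (0.10) falls below 0 without centring, and the median was 1.05. VSP2, a vegetative storage protein, had 3157 RPKM with C24, 612 with Ler and 1347 with Col. VSP1 had 3910, 1633 and 3692 RPKM. OPR3, a reductase of jasmonate synthesis, had 19.8 against 9.61 RPKM, the repressor JAZ1 45.0 against 22.4 RPKM and the factor MYC2 86.0 against 46.9 RPKM. These 3 ratios, 1.22, 1.18 and 1.05, were near the rule, and without centring the list's median of 0.87 fell under it.

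Surface and transport genes gave smaller counts, to be read beside 5.49% of all loci higher and 3.31% lower. Of 17 lipid transfer and cuticle genes 4 were higher and none was lower, and without centring 2 were higher, since LTP2 (0.98) and CER4 (0.97) fell under the rule. LTP3 had 2674 against 877 RPKM and its near copy LTP4 6443 against 3036 RPKM. CER4, the wax reductase, had 198 against 101 RPKM, while CER3 had 338 against 355 RPKM. Of 13 aquaporins 3 were higher, PIP2B (106 against 32.2 RPKM), GAMMA-TIP (498 against 228 RPKM) and PIP2;4 (31.1 against 14.9 RPKM), and TIP2 lay at -0.89, or -1.07 without centring. Among 13 flavonoid genes FLS1, flavonol synthase, was higher with 82.7 against 38.8 RPKM. TT4, the chalcone synthase, had 1128 against 757 RPKM. Of 10 gibberellin genes GASA4 was called lower with 75.1 against 468 RPKM on 1 transcript, but its other transcript had 49.2 against 4.66 RPKM and a ratio of 3.55, so the locus has no direction.

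Cold, dehydration and heat shock genes held calls in both directions, while iron and chromatin genes held few or none. Over all loci 8.8% passed 2-fold. COR15A, a chloroplast cold protein, had 40.8 against 13.8 RPKM, but its neighbour and paralog COR15B had 20.0 against 46.6 RPKM. LTI30 had 7.74 against 2.12 RPKM and RAB18 11.3 against 5.58 RPKM, both dehydrins. Of 11 cold and dehydration genes 3 were thus higher and 1 was lower, or 2 lower without centring with COR47 (-1.01). Among 6 heat shock genes HSP70 had 10.0 against 5.14 RPKM and HSP18.2 2.81 against 9.27 RPKM, and HSP70 fell under the rule without centring (0.95). The ferritin FER4 had 6.11 against 17.9 RPKM and was the only 1 of 7 iron genes to pass 2-fold. None of 19 DNA methylation genes and none of 7 Polycomb genes passed it after centring, with medians of -0.20 and -0.13; SUVH4 was lower without centring (-1.06). MET1, the maintenance methyltransferase, had 6.93 against 9.32 RPKM and CLF, a Polycomb methyltransferase, 6.97 against 8.63 RPKM. MEA and FIS2, the Polycomb genes of the seed, were in neither table.

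Reference genes give a view of the spread where little difference is usual. Of 14, none was higher and 1 was lower, CBP20, whose transcripts disagree (-1.11 and 0.47). ACT2 had 149 against 164 RPKM, PP2AA3 18.1 against 19.4 RPKM and UBQ10 181 against 200 RPKM. The median of the 14 was 0.13 and the range ran from -1.11 to 0.97. Markers of other tissues differed by gene. The 8 of 10 pollen markers listed in both crosses had a median of -0.39, with none past 2-fold after centring. Without it 2 were lower, LAT52 (-1.12) and AGP23 (-1.05). The 8 summed to 43.8 RPKM with C24 and 74.1 with Ler. A. arenosa alleles gave 60.8% and 67.5% of these sums, beside 6.24% and 4.61% of the sums over all compared loci. Which parent gave the pollen was not tested. ATML1, an epidermal factor and the 1 embryo list gene in both tables, passed 2-fold as higher with 39.2 against 20.12 RPKM (1.14). GL2, of the seed coat epidermis, did so too with 23.0 against 12.5 RPKM (1.06), as 1 of 4 seed coat genes. Both fell under the rule without centring, at 0.96 and 0.88. SUC5, an endosperm sucrose carrier, had 19.2 against 32.6 RPKM. AP3 of petals and stamens had 33.1 against 33.0 RPKM, and SCR of the endodermis 10.8 against 11.9 RPKM. The part of tissue makeup in the differences above was not tested.

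Other loci at the ends of the range lay outside these lists. Besides TGG2, AT1G68200, AGP19, IRX6 and IRX9, the 10 highest ratios among loci reaching 5 RPKM included the polyketide cyclase family gene AT4G23680 (59.0 against 4.66 RPKM) and the glutathione transferase GSTU26 (29.7 against 2.42 RPKM). They also held the glycosyltransferase AT4G15260 (24.2 against 2.04 RPKM), AT5G28450 of the chlorophyll-binding family (45.0 against 3.96 RPKM) and the aspartyl protease AT2G03200 (39.5 against 3.64 RPKM). At the low end stood AT2G34655, an uncharacterized protein, with 3.21 RPKM with C24, 103 with Ler and 8.52 with Col. SADHU6-1, of the SADHU retroelements, had 6.58 against 176 RPKM and was absent from the Col table. AT1G19550 of the glutathione transferase family had 5.29 against 76.5 RPKM, AT5G37130 7.87 against 99.1 RPKM and AT3G10020 15.1 against 172 RPKM. PAP12, a secreted acid phosphatase, had 3.30, 35.9 and 31.6 RPKM with C24, with Ler and with Col. AT5G18600 of the thioredoxin family had 2.48 against 26.6 RPKM. PAP12 differs from the others in that its Col value lies near the Ler value. Of the larger families counted, 94 ribosomal protein loci had a median of -0.40 with 1 higher and 3 lower. For 86 pentatricopeptide repeat loci the median was -0.37 with none higher and 2 lower. The shares of all loci were 5.49% higher and 3.31% lower. Without centring 7 ribosomal protein loci and 8 pentatricopeptide repeat loci were lower. Cytochrome P450 loci had 12 higher and 4 lower of 83.

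The deposited tables split each total into A. thaliana and A. arenosa alleles, and both were compared. A. arenosa supplied a median of 5.42% of RPKM per locus with C24 and 3.80% with Ler. At the 824 higher loci, the A. thaliana alleles had a median ratio of 1.41, centred on their own median. A. arenosa alleles were followed at the 449 of these with at least 1 A. arenosa RPKM in either cross, and these had a median of 1.41, with quartiles of 0.74 and 2.55. At the 497 lower loci the medians were -1.32 for A. thaliana and, at 202 loci, -1.52 for A. arenosa. Over all 6365 loci with such values the quartiles of the A. arenosa ratio were -0.58 and 0.79. The minimum keeps many loci through the cross where the A. arenosa value is high, which by itself moves the kept ratios toward the side of the call, so these A. arenosa medians are a description of the kept loci and support nothing. Both allele values come from the same libraries and sum to the total used for the call, and reads of 1 species given to the other would move them together, and that share is unknown here. For cellulose and xylan genes A. arenosa alleles summed to 106 RPKM with C24 and 22.3 with Ler, 4.44% and 4.97% of the totals. For glucosinolate synthesis genes they summed to 4.42 and 14.6 RPKM, 3.30% and 2.93%.

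**Figure D4:**
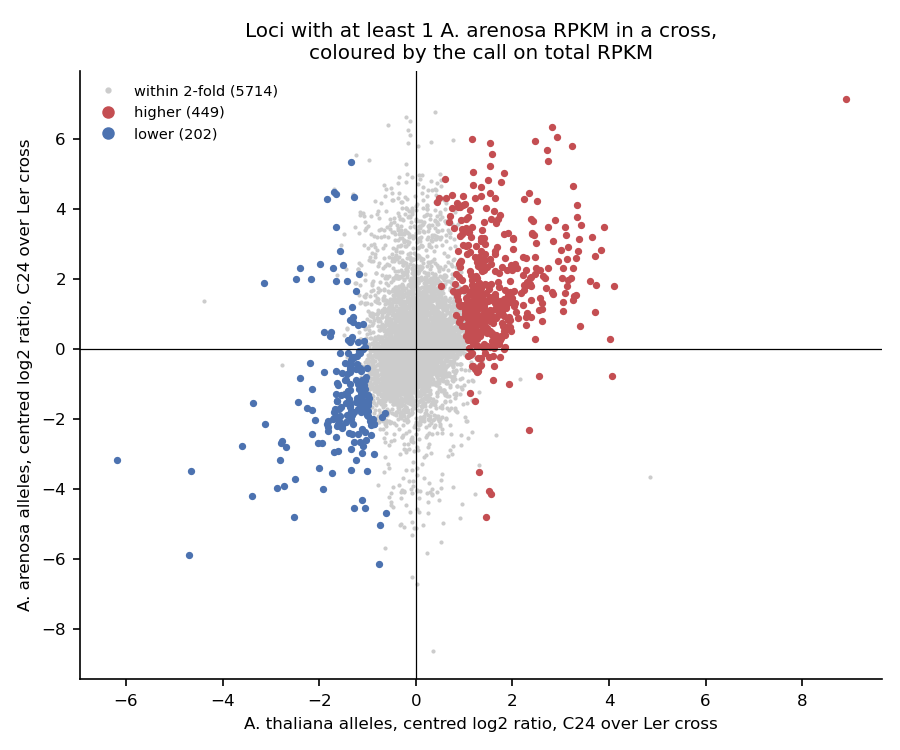
Centred log2 ratio of C24 over Ler cross for A. thaliana alleles (horizontal) and A. arenosa alleles (vertical), 1 point per locus with at least 1 A. arenosa RPKM in a cross, coloured by the call on total RPKM. The 449 higher loci lie mostly at the upper right and the 202 lower loci mostly at the lower left, with wide vertical scatter where A. arenosa values are small; the choice of loci by their larger A. arenosa value favours the side of the call.

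Loci listed in 1 of the 2 crosses were mostly near the limit of the tables. The 471 of the C24 cross had a median of 3.07 RPKM and the 927 of the Ler cross a median of 2.85, and 47.6% and 55.7% of them lay under 3 RPKM. At 5 RPKM or more there were 111 and 136. No fold is given for these, since the other table holds no value. The Col table listed 205 of the 471 and 514 of the 927.

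**Figure D5:**
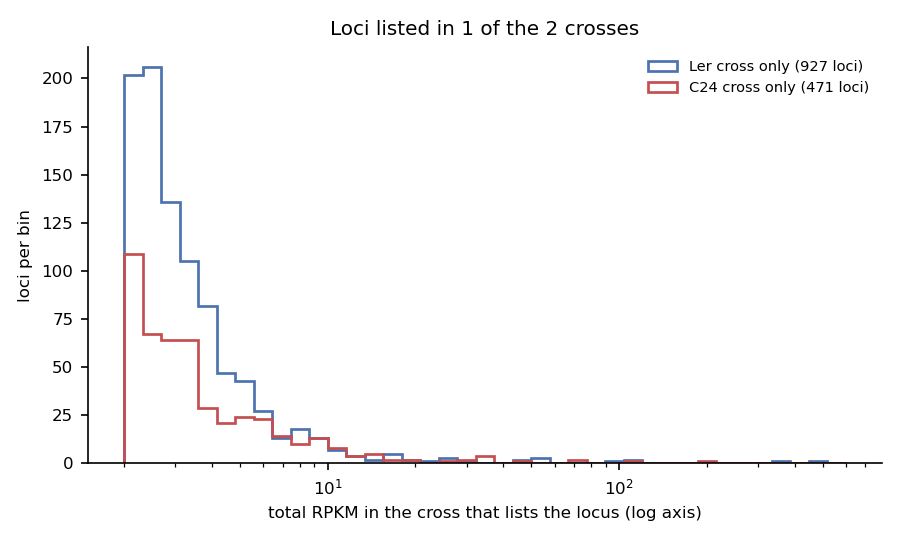
Number of loci (vertical) by total RPKM in the cross that lists them (horizontal, log axis), for 471 loci of the C24 cross only and 927 of the Ler cross only. Both curves peak just above 2 RPKM, the lowest value in the tables, and few loci lie above 10 RPKM.

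A few of these loci were abundant. In the C24 cross the highest were AT1G51402, an uncharacterized protein, at 212 RPKM, and AT1G14250, a nucleoside phosphatase family gene, at 113 RPKM. The antisense RNA gene AT1G68568 had 71.2 RPKM and BAS, a beta-amyrin synthase that makes a triterpene, 69.4 RPKM. FMO GS-OX2 followed at 46.6 RPKM. The Col cross held all 5, at 18.0, 56.5, 29.9, 95.04 and 14.4 RPKM in the same order. In the Ler cross the highest was AT1G67105, a noncoding RNA gene, at 514 RPKM, of which 44.2% came from A. arenosa. ARGAH2, an arginase, had 344 RPKM and reached 563 in the Col cross. AT1G24388 had 111 RPKM, and the F-box genes AT1G27540 and AT1G27580 had 110 and 96.1 RPKM. Of these 5, ARGAH2 and AT1G27540 were also in the Col table, the latter at 9.74 RPKM.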

How the data were processed

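Poly(A) RNA from siliques of the C24, Ler and Col crosses was sequenced, 1 library each, per the labels' protocols. The authors deposited RPKM values per transcript, in total and for each allele, per the file headers; the submitters' processing notes name TAIR 9, and how reads were mapped, stranded and assigned to alleles is not stated in the sources used here. Of the allele columns, T was taken for A. thaliana and A for A. arenosa. Since RPKM divides by a library total, very abundant transcripts lower all the rest. Allele values reach down to 2.15e-06 RPKM, so no whole reads could be recovered, depth is unknown and no counting interval is given. For Col, 4 repeated header lines were dropped.

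Transcripts were reduced to 1 per locus, 0.1 RPKM was added, and the log2 ratio was centred on its median. Loci were called at 2-fold. With 1 library a side no test was run. The 39 gene lists held 528 entries, and 4 more lists with 48 entries were added after the values were seen. Members and lists were chosen with earlier results of these data known. Named genes were the 10 highest and 10 lowest ratios among loci whose larger value reached 5 RPKM, the 5 most abundant loci listed in each table only, up to 4 members per list and every measured member of 5 short lists; other genes in the text were chosen after their values were seen. Locus codes were matched to the RefSeq annotation of TAIR10.1, which held 14923 of the 15006, for names, order and the 250 bases before each gene start. The ratio code was tested on simulated data. Alternatives were other pseudocounts, filters, centring, fold rules, transcripts and alleles. Python 3.11.15, numpy 2.4.6, pandas 2.3.3 and matplotlib 3.10.9 were used.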

Additional observations from a re-analysis of the deposited data

How the results depend on the processing

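No paired analysis was possible because each cross had 1 library. The count of higher loci was 155 under a 4-fold rule, against 824. That of lower loci was 56 under this rule and 878 without centring, against 497. With a mean of at least 10 RPKM, 495 loci were higher and 305 lower, but out of 8999 loci in place of 15006. Higher loci were then 61.9% of those past 2-fold, beside 62.4% without the filter. At 5 RPKM or more, loci listed in 1 table only were 111 (C24 cross) and 136 (Ler cross). Rescaling without the 100 most abundant loci gave 736 higher and 595 lower. Other pseudocounts, transcripts, A. thaliana alleles alone and leaving out loci whose transcripts disagree, an alternative chosen after seeing the data, kept both counts within 1.5 times. Of 39 list medians compared, 7 changed sign without centring: photosystems (-0.18), Calvin cycle (-0.13), ERECTA family (-0.09), cold and dehydration (-0.08), heat shock (-0.17), gibberellin (-0.05) and reference genes (-0.05). These 39 are not the 39 lists drawn up first. The root marker list, with 1 locus in both crosses, was outside them and also changed sign without centring, from 0.04 to -0.14. Wall regulators (0.99) and jasmonate (0.87) then fell under 2-fold, 11 of 441 list entries lost their call and 11 gained one. The cause of these shifts is the subtracted median of -0.18 itself. Unknown depth limits what can be said of loci near 2 RPKM.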
